A study of Homo sapiens with 8 samples.

Results

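The BCL2 family apoptosis regulators described here are 10 genes, chosen by name from the 48162 genes listed in each library's table. Every symbol occurred once in the tables, and all 10 genes passed the filter on low values, a mean of at least 1 FPKM (a read count per kilobase of transcript, scaled to library depth). Of the 10, BCL2, BCL2L1 and MCL1 code for anti-apoptotic proteins. BAX and BAK1 code for the effectors that open the outer mitochondrial membrane. BIK, HRK, BBC3, PMAIP1 and BCL2L11 code for BH3-only proteins, which share only the short BH3 death domain with the rest of the family. All 10 are protein-coding genes. The exon length implied by the values ran from 737 bp for BAX to 2677 bp for BCL2, with 2051 bp for MCL1. Which exons each length covers was not checked. The order of the genes by level and their shares of summed FPKM, given below, depend on these lengths. On GRCh38, GENCODE places BCL2 at chr18:63123346-63320128 (minus strand), BCL2L1 at chr20:31664452-31723989 (minus strand) and MCL1 at chr1:150574551-150579738 (minus strand). The effectors are BAX at chr19:48954815-48961798 (plus strand) and BAK1 at chr6:33572547-33580293 (minus strand). The BH3-only genes are BIK at chr22:43110748-43129712 (plus strand), HRK at chr12:116856144-116881441 (minus strand), BBC3 at chr19:47220822-47232766 (minus strand), PMAIP1 at chr18:59899948-59904306 (plus strand) and BCL2L11 at chr2:111119378-111168447 (plus strand).

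The mitochondrial route to apoptosis is set by binding among these proteins: anti-apoptotic members hold effectors and BH3-only proteins in check, and BH3-only proteins displace them or activate the effectors. Activated BAX and BAK1 release cytochrome c into the cytosol, where it assembles the apoptosome with APAF1 and caspase 9. In epithelial cells MCL1 and BCL2L1 are known as the main survival members, and the BH3-only genes are known for transcriptional control by stress-responsive factors.

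RNA sequencing was used to profile the effect of the long noncoding RNA NMR in KYSE70 and KYSE450, established human lines of esophageal squamous cell carcinoma, at passages 5 to 10. The series holds 8 libraries in 4 groups, with 1 library of each line per group. Overexpression of NMR was by plasmid vector transfected with a lipid reagent, and its controls are called plasmid controls below. Knockdown was by infection with lentivirus packaged in HEK 293T cells, and the sample titles name it as shRNA; its controls are called lentiviral controls. The labels do not say what either control group received, nor do they give a clone number, an shRNA sequence or the day of harvest. All libraries of an arm share its delivery, so delivery and anything else that differed between the arms cannot be told apart. No gene in the files carries the name NMR, so its level was not analysed here and the manipulations have no check on the target. The labels do not say that libraries came from separate cultures beyond the line, so each p-value measures only the spread between these libraries.

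Whole reads were recovered from the tables, and depth ran from 26401805 to 37937856 reads per library. The squamous markers were present, with all 8 in the files and a summed level of 7501 to 26160 FPKM. The basal keratins KRT14 and KRT17 were high in KYSE450, and in KYSE70 they stood at 3.199 to 38.3 FPKM and under 1 FPKM. All 6 leukocyte markers were under 1 FPKM in every library (summed 0.198 to 1.39), 3 of 6 fibroblast markers were under 1 FPKM (summed 27.1 to 52.3, mostly COL1A1), and the 3 endothelial markers in the files summed to 0.742 to 4.29 FPKM. The knockdown library of KYSE70 stood apart: its difference from its control ran with the GC content of genes (Spearman -0.483 across 13914 genes, which are not independent replicates, against 0.042 in KYSE450), and mitochondrially encoded genes made up 8.63% of its FPKM against 3.84% to 5.75% elsewhere. The knockdown differences of the members in KYSE70 are therefore given also after correction for GC and gene length trends. In bulk RNA, fewer cells with a transcript and less of it per cell cannot be told apart.

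Among the 10 genes, BBC3, HRK and PMAIP1 had levels in the lentiviral libraries that lay above every plasmid library. They were picked for that split, and the sequences just upstream of their RefSeq transcription starts (GRCh38.p14) are shown. BBC3 codes for PUMA and HRK for harakiri, and PMAIP1 codes for NOXA. The printed stretches are chr19:47232767-47232917 on the minus strand for BBC3, chr12:116881442-116881691 on the minus strand for HRK and chr18:59899746-59899947 on the plus strand for PMAIP1, cut where the GENCODE gene begins. Capitals mark matches to the searched motifs.
BBC3: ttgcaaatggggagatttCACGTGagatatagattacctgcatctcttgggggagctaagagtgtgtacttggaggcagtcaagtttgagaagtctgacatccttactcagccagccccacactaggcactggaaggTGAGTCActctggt
HRK: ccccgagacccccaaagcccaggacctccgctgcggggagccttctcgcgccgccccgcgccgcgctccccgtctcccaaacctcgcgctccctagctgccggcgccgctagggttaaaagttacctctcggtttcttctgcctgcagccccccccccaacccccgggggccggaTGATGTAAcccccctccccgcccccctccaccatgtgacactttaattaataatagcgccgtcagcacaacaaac
PMAIP1: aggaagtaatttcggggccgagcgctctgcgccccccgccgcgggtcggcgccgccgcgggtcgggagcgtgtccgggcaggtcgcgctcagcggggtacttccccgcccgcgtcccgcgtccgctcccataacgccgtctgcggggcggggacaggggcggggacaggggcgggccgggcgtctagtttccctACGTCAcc

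The motifs were chosen after the values had been seen, and they were searched on both strands in the 250 bases before the start. They were TGACGT (a cyclic AMP response element half-site), TGATGNAA (the core of a C/EBP-ATF element), TGAGTCA (an AP-1 site) and CACGTG (an E-box, the same on both strands). BBC3 held TGAGTCA at 113 to 107 bases and CACGTG at 232 to 227 bases before its start. HRK held TGATGTAA at 75 to 68 bases, and PMAIP1 held ACGTCA, the reverse strand of TGACGT, at 56 to 51 bases before the start. Of 35116 promoters in the table, 7.10% held TGACGT, 3.14% TGATGNAA, 4.203% TGAGTCA and 6.34% CACGTG. The share with a match to any of these motifs, which would be larger than each of these, was not counted. BAX, whose arms overlapped, held CACGTG at 138 to 133, 93 to 88, 45 to 40 and 14 to 9 bases before its start, and the other 4 genes with an entry held no match. No motif was shared by BBC3, HRK and PMAIP1, and a match in letters is not a binding site. Of the 10 genes 8 had an entry in the table; BIK and MCL1 did not.

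**Figure D1:**
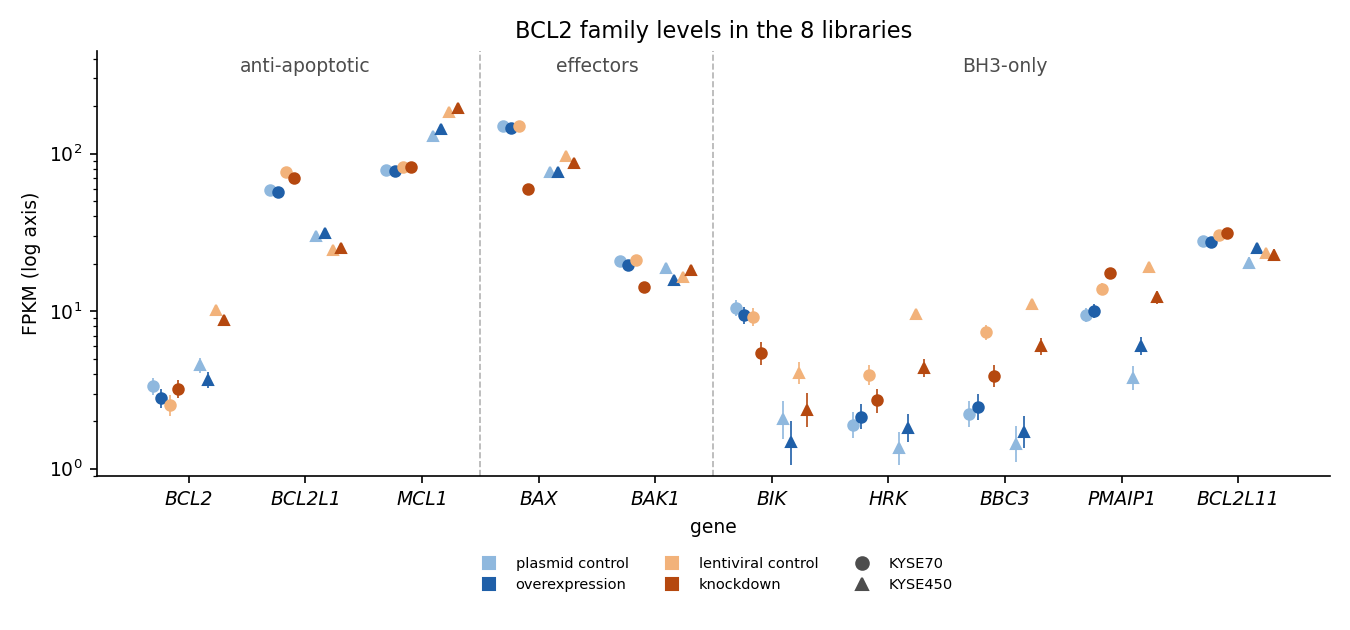
FPKM of the 10 genes (log axis) in the 8 libraries, with color for the group, circles for KYSE70, triangles for KYSE450 and bars for the 95% Poisson interval of the recovered reads. MCL1 and BAX lie near or above 60 FPKM throughout, and the BBC3, HRK and PMAIP1 points split by delivery arm.

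The levels spanned a wide range within each line. In KYSE450 the order from high to low was MCL1, BAX, BCL2L1, BCL2L11, BAK1, PMAIP1, BCL2, BBC3, HRK and BIK. In KYSE70 it was BAX, MCL1, BCL2L1, BCL2L11, BAK1, PMAIP1, BIK, BBC3, BCL2 and HRK. From BAK1 down to the last gene every neighbour in either order had overlapping ranges over its 4 libraries, as did BCL2L1 and BCL2L11 in KYSE450 and BAX and MCL1 in KYSE70. The other neighbours did not overlap. The reads behind these values ran from 41 for BIK in the KYSE450 overexpression library to 14334 for MCL1 in the KYSE450 lentiviral control. The intervals given for single libraries describe counting error alone, as PCR copies of a molecule were not told apart.

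KYSE450 had more MCL1 and BCL2, and KYSE70 had more BCL2L1, BIK and BCL2L11; in all 5 genes the 4 libraries of each line formed separate ranges. Limma called these 5 of the 10 (2 higher and 3 lower in KYSE450), beside a background of 54% of all 14311 tested genes called either way, 27.4% higher and 26.6% lower. Ranges that did not overlap were found for 48.6% of all tested genes (24.5% higher and 24.1% lower in KYSE450), so the 5 of 10 lies at the level of the background. The median difference of the 10 genes was -0.23 on the log2(FPKM + 1) scale, against 0.02 over all genes.

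MCL1, a short-lived anti-apoptotic protein, stood in KYSE70 at 78.5 (plasmid control), 77.2 (overexpression), 82.8 (lentiviral control) and 82.1 FPKM (knockdown). In KYSE450 the same libraries had 129, 142, 184 and 194 FPKM. The 4 KYSE70 libraries were nearly level, while the KYSE450 lentiviral libraries were the highest. The fitted log2 difference, KYSE450 minus KYSE70, was 0.99 (SE 0.13, n = 4 libraries per line, limma adjusted p = 0.00083).

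BCL2L1, which codes for BCL-XL, showed the reverse: 58.9, 57.0, 76.4 and 69.6 FPKM in KYSE70 against 30.2, 31.1, 24.5 and 25.003 FPKM in KYSE450, in the same library order. Its log2 difference was -1.21 (SE 0.16, limma adjusted p = 0.00085). Antisense reads could not be separated, since BCL2L1 exons share 1424 bases with the antisense gene ABALON, which was not analysed here, and the sources used here do not state the strand setting of the counting.

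BCL2, the founding member of the family, was low in KYSE70 (3.33, 2.79, 2.53 and 3.21 FPKM). In KYSE450 it had 4.53, 3.65, 10.2 and 8.74 FPKM, with both lentiviral libraries above both plasmid libraries. Its log2 difference was 0.88 (SE 0.26, limma adjusted p = 0.0254). This call was lost without either lentiviral control or either knockdown library (adjusted p = 0.0896 to 0.0937), without the filter (0.0729), with quantile normalization (0.0853) and with the controls alone (0.059).

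**Figure D2:**
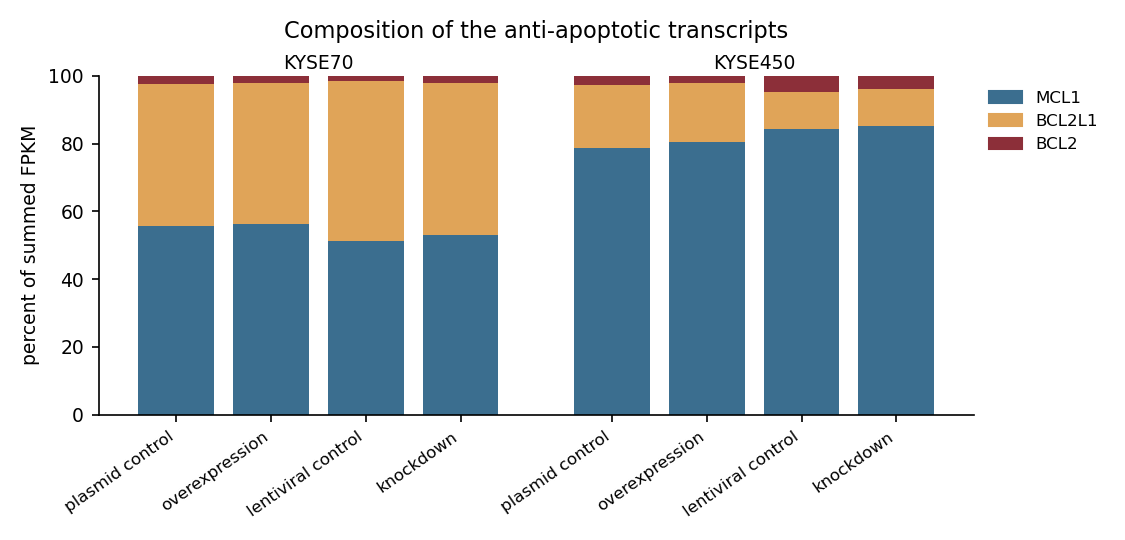
Percent of the summed FPKM of BCL2, BCL2L1 and MCL1 contributed by each gene in each library, by line and group. MCL1 takes 51.2% to 56.3% in KYSE70 and 78.8% to 85.2% in KYSE450.

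As a share of the 3 anti-apoptotic genes' summed FPKM, MCL1 made up 51.2% to 56.3% in the KYSE70 libraries and 78.8% to 85.2% in the KYSE450 libraries. BCL2L1 made up 41.6% to 47.3% and 11.0% to 18.4%, and BCL2 never more than 4.65%. The ratio of MCL1 to BCL2L1 was 1.08 to 1.35 in KYSE70 and 4.28 to 7.74 in KYSE450. Within KYSE450 the shares also split by arm: BCL2L1 made up 18.4% and 17.6% in the plasmid libraries and 11.2% and 11.0% in the lentiviral libraries. These shares were compared with no test.

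BIK, a BH3-only protein of the endoplasmic reticulum, stood at 10.5, 9.44, 9.24 and 5.40 FPKM in KYSE70 and at 2.05, 1.47, 4.06 and 2.37 FPKM in KYSE450. All KYSE70 libraries were above all KYSE450 libraries, with a log2 difference of -1.48 (SE 0.24, limma adjusted p = 0.0021). The calls for MCL1, BCL2L1 and BIK were kept in each of the 8 other processings and on leaving out each of the 8 libraries.

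BCL2L11, which codes for BIM, was the BH3-only gene with the highest level, at 28.0, 27.5, 30.2 and 31.5 FPKM in KYSE70 and 20.2, 25.002, 23.6 and 22.8 FPKM in KYSE450. It made up 34.995% to 70.1% of the summed FPKM of the 5 BH3-only genes. The log2 difference was -0.34 (SE 0.12, limma adjusted p = 0.0480), a call lost on leaving out any 1 of the 8 libraries (0.0742 to 0.207) and in 4 of 8 other processings. Its exons share 727 bases with MIR4435-2HG on the opposite strand, a gene at 16.5 to 37.3 FPKM here, and without the strand setting their reads cannot be told apart, so the level is uncertain.

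The other 5 genes did not pass the test between the lines, with log2 differences of 0.30 for HRK, 0.07 for BBC3, -0.46 for PMAIP1 and -0.12 for BAK1 besides BAX; PMAIP1 passed without either lentiviral control (adjusted p up to 0.0282). BAX stood at 151, 147, 151 and 59.7 FPKM in KYSE70 and 76.6, 75.9, 96.6 and 86.7 FPKM in KYSE450. Only its KYSE70 knockdown library lay among or below the KYSE450 values; the log2 difference was -0.50 (SE 0.25, limma adjusted p = 0.133), and it passed with the 4 controls alone (-0.80, adjusted p = 0.0082), after a per-library correction for GC and length trends (0.0387), and without the knockdown library of KYSE70 or of KYSE450 (-0.85, adjusted p = 0.0027 either way, since each omission leaves no knockdown pair). BAK1 had 21.0, 19.6, 21.3 and 14.3 FPKM in KYSE70 and 18.8, 15.7, 16.5 and 18.2 FPKM in KYSE450, with overlapping lines. The ratio of BAX to BAK1 was 4.08 to 7.46 over the libraries. Shared reads with BAK1 pseudogenes are possible, though BAK1P1 was listed at no more than 0.609 FPKM and BAK1P2 at no more than 0.0599 FPKM.

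The arm comparison separated a different set of genes, all BH3-only. BBC3, HRK and PMAIP1 were the 3 of 10 whose 4 lentiviral libraries all lay above the 4 plasmid libraries, beside 9.88% of tested genes that did not overlap in either direction, 6.51% upward and 3.38% downward. BBC3 was the gene called higher by limma (1 of 10; 4.02% of all genes were called either way, 3% higher and 1.01% lower). The members' median difference was 0.19 log2 units, against 0.07 over all genes. Beside these, the squamous markers summed to 12280 to 26160 FPKM in the plasmid arm and 7501 to 13700 FPKM in the lentiviral arm. Most of each sum was KRT5 and KRT6A, so the sums do not speak for the marker set. Of the 8 markers, 3 had a fitted arm difference above 0, the median was -0.14 log2 units and 0 were called. The part of these markers in the result was not tested.

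**Figure D3:**
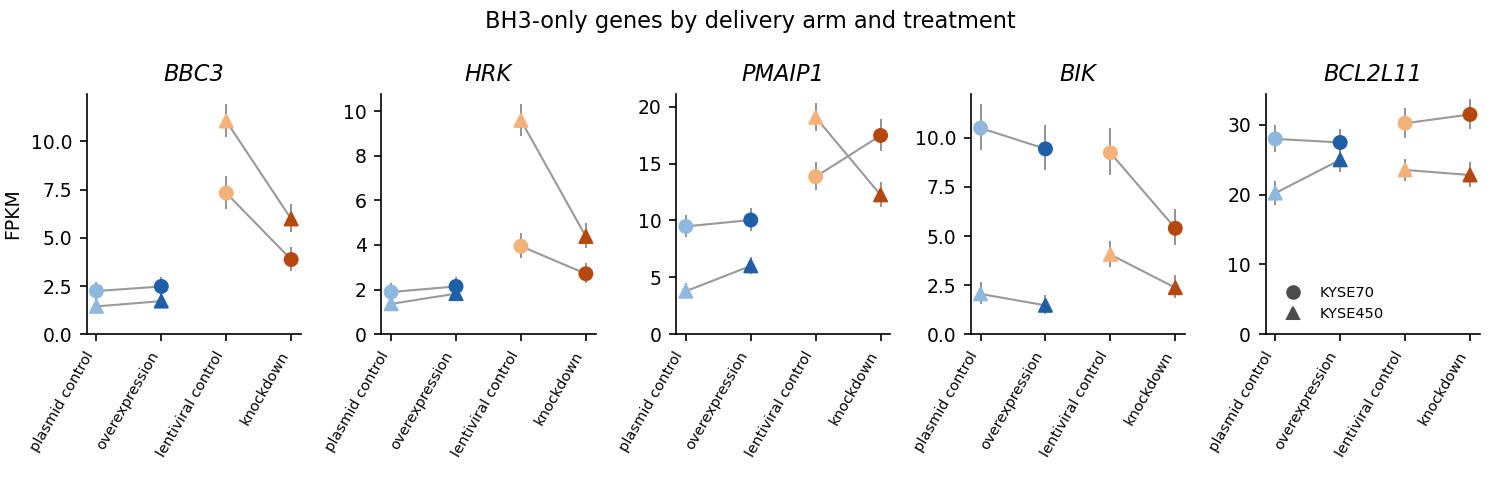
FPKM of the 5 BH3-only genes in each library by group (linear axes starting at 0), with circles for KYSE70, triangles for KYSE450, lines joining treated library and control, and bars for the 95% Poisson interval. BBC3 and HRK are highest in the lentiviral controls, and BCL2L11 stays within 20.2 to 31.5 FPKM.

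BBC3, whose product binds all anti-apoptotic members, stood at 2.24 and 2.48 FPKM in the plasmid control and overexpression libraries of KYSE70 and at 1.44 and 1.72 FPKM in those of KYSE450. The lentiviral control and knockdown libraries had 7.32 and 3.87 FPKM in KYSE70 and 11.1 and 5.98 FPKM in KYSE450. Every lentiviral library was above every plasmid library, and within each line the lentiviral control was the highest. The log2 difference between arms was 1.38 (SE 0.22, n = 4 libraries per arm, limma adjusted p = 0.0345). It ran from 1.22 to 1.54 on leaving out each library, with the call kept in 2 of 8 cases (without the KYSE70 overexpression library, 0.0479, or the KYSE450 knockdown library, 0.0335; otherwise up to 0.158), and it was lost without the filter (0.138) and with quantile normalization (0.0627). After the per-library GC and length correction it was 1.41 (0.0310).

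HRK, a BH3-only gene best known from neurons, had 1.89 and 2.14 FPKM in the plasmid arm of KYSE70 and 1.36 and 1.82 FPKM in that of KYSE450. The lentiviral arm had 3.94 and 2.71 FPKM in KYSE70 and 9.58 and 4.38 FPKM in KYSE450 (control, then knockdown). The arms did not overlap, and the log2 difference of 1.03 (SE 0.26) did not pass (limma adjusted p = 0.0657; after the per-library GC and length correction 1.02, 0.0678).

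PMAIP1, whose product binds mainly MCL1, had 9.47 and 10.0 FPKM in the plasmid arm of KYSE70 and 3.78 and 6.003 FPKM in that of KYSE450. In the lentiviral arm it had 13.8 and 17.5 FPKM in KYSE70 and 19.1 and 12.2 FPKM in KYSE450. The knockdown library was the higher of the lentiviral libraries in KYSE70 and the lower in KYSE450. The arms did not overlap, with a log2 difference of 1.06 (SE 0.25, limma adjusted p = 0.0611; after the same correction 0.95, 0.0594).

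The other 7 genes had arm differences between -0.19 (BAX) and 0.49 (BCL2) with overlapping arms and none called. The BAX difference was -0.53 on leaving out the KYSE450 knockdown library and 0.15 on leaving out the KYSE70 knockdown library. Intervals at 95% ran from -0.13 to 1.10 for BCL2 and from -0.03 to 0.59 for MCL1, and that of BCL2L1 from -0.36 to 0.39.

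Between the control groups alone, limma called 0 of 14311 genes (0%), while 14.5% had an unadjusted p under 0.05, among them the same 3 of 10 genes. The log2 difference was 1.83 for BBC3 (SE 0.31, n = 2 libraries per group, limma adjusted p = 0.119). For HRK it was 1.47 (SE 0.36, limma adjusted p = 0.189), and for PMAIP1 1.29 (SE 0.35, limma adjusted p = 0.208). As ratios of lentiviral to plasmid control, BBC3 was at 3.27 in KYSE70 (95% counting interval 2.62 to 4.12) and 7.65 in KYSE450 (5.87 to 10.1). HRK was at 2.08 (1.65 to 2.65) and 7.04 (5.50 to 9.14), and PMAIP1 at 1.46 (1.28 to 1.67) and 5.04 (4.21 to 6.08). In each of these 3 genes the KYSE450 ratio was the larger. Over all tested genes the median difference of the control pair was 0.12 on the log2(FPKM + 1) scale in KYSE70 and -6.6e-05 in KYSE450. The ratios and their counting intervals are not adjusted for this shift. The fitted differences of the other members were 0.36 for BCL2, 0.04 for BCL2L1, 0.29 for MCL1, 0.17 for BAX, -0.08 for BAK1, 0.28 for BIK and 0.16 for BCL2L11 (limma adjusted p from 0.509 to 0.952).

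**Figure D4:**
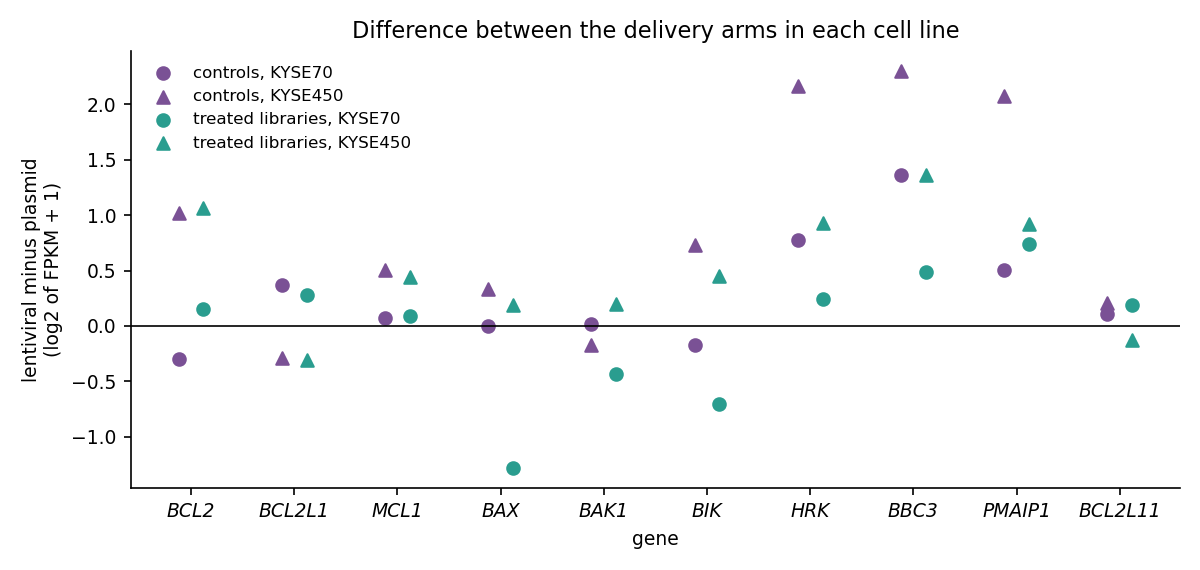
Lentiviral minus plasmid difference of log2(FPKM + 1) for each gene and line, for the control libraries (purple) and for knockdown minus overexpression (teal), with circles for KYSE70 and triangles for KYSE450 and a line at 0. The KYSE450 controls reach 2.30 for BBC3, 2.16 for HRK and 2.07 for PMAIP1, and the BAX circle of the treated libraries lies at -1.28.

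Whether the arm difference itself differed between lines was tested with an interaction term. BIK was called (1 of 10; 6.37% of all genes were called, 1.54% higher and 4.84% lower, and 27.3% had an unadjusted p under 0.05, as did 7 of the 10), with an arm difference 1.03 log2 units larger in KYSE450 than in KYSE70 (SE 0.23, limma adjusted p = 0.0490). In KYSE450 the BIK lentiviral libraries (4.06 and 2.37 FPKM) were above the plasmid libraries (2.05 and 1.47 FPKM), and in KYSE70 (9.24 and 5.40 FPKM) they were below (10.5 and 9.44 FPKM). The call rests close to the threshold: it was lost at a pseudocount of 0.1 (0.0579), at a mean of at least 5 FPKM (0.0585), without the filter (0.183), with voom on the recovered reads (0.0666) and without any 1 plasmid library (0.225 to 0.426).

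BCL2 had the largest interaction of the 10 at 1.11 (SE 0.26, limma adjusted p = 0.0521), just outside the threshold. It passed with TMM scaling (0.0452), quantile normalization (0.0369), voom (0.0460) and a per-library correction for GC and length trends (0.0205). The ratio of lentiviral to plasmid control was 0.760 in KYSE70 (0.627 to 0.921) and 2.25 in KYSE450 (1.98 to 2.55). The interaction was 1.04 for HRK (adjusted p = 0.0708), 0.91 for BBC3 (0.0631), 0.87 for PMAIP1 (0.164), 0.90 for BAX (0.170), -0.62 for BCL2L1 (0.0991), 0.39 for MCL1 (0.242), 0.22 for BAK1 (0.631) and -0.11 for BCL2L11 (0.772), all by limma. BBC3 passed with TMM scaling (0.04996) and quantile normalization (0.0335), and HRK after the per-library correction (1.12, 0.0403). The median over the 10 genes was 0.89, against -0.12 over all genes. Leaving out any 1 lentiviral library brought BCL2, BCL2L1, HRK and BBC3 past the threshold (adjusted p up to 0.0312), as did leaving out a lentiviral control for BAX, BAK1 and MCL1 and a knockdown library for PMAIP1, whereas leaving out a plasmid library did so for none of them. Omitting a lentiviral library leaves 1 lentiviral pair, so the spread in those fits comes from the plasmid libraries, and the genes called overall went from 912 to at least 4069. Under TMM scaling or quantile normalization the all-gene median of this contrast moved up by 0.12, and the interaction kept its sign in 9 of the 10 genes, BCL2L11 going to 0.04 under TMM scaling.

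The knockdown comparison asked which genes respond to less NMR, each knockdown library against the lentiviral control of its line. Limma called 0 of 14311 genes (0%), with 12.5% at an unadjusted p under 0.05, among them 4 of the 10: BBC3, BIK, HRK and BAX. These 4 of 10 were lower in both lines, beside 25.9% of all genes, and 0 of 10 were higher in both, beside 27.1%. The lentiviral controls used here are the same libraries as in the arm and control comparisons, so a high control enters both. The members' median was -0.17 log2 units, against -0.002 over all genes. Voom called 4 genes and the lentiviral arm fitted alone 37, none of them a member. Leaving out a lentiviral library leaves 1 pair and its line. The lone pair is then assumed to vary like the plasmid pairs, so only effect sizes are given for the members. With the KYSE70 pair alone the log2 differences were -1.32 for BAX, -0.54 for BAK1, -0.68 for BIK, -0.41 for HRK and -0.77 for BBC3. With the KYSE450 pair alone they were -0.15, 0.13, -0.59, -0.98 and -0.79, in the same order.

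BBC3 had 7.32 FPKM in the KYSE70 control and 3.87 FPKM in its knockdown library, and 11.1 and 5.98 FPKM in those of KYSE450. The ratios to control were nearly equal, 0.529 (0.433 to 0.644) and 0.541 (0.467 to 0.624), and both knockdown libraries stayed above all plasmid libraries. The log2 difference was -0.78 (SE 0.16, n = 2 pairs, limma adjusted p = 0.268). After the GC and length correction BBC3 stood at -0.30 in KYSE70 and -0.84 in KYSE450, from -0.77 and -0.79.

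HRK had 3.94 and 2.71 FPKM in KYSE70 and 9.58 and 4.38 FPKM in KYSE450, ratios of 0.687 (0.548 to 0.859) and 0.457 (0.393 to 0.530). The log2 difference was -0.70 (SE 0.20, limma adjusted p = 0.320), and it kept its value when the trends were removed (-0.41 in KYSE70 and -0.98 in KYSE450). BIK had ratios of 0.584 (0.469 to 0.725) and 0.583 (0.430 to 0.785), with a log2 difference of -0.63 (SE 0.16, limma adjusted p = 0.305). With the trends removed BIK stood at -0.33 in KYSE70 and -0.57 in KYSE450.

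BAX differed mostly in KYSE70, from 151 to 59.7 FPKM, a ratio of 0.397 (0.370 to 0.425). In KYSE450 it went from 96.6 to 86.7 FPKM, a ratio of 0.897 (0.846 to 0.952). The log2 difference of -0.74 (SE 0.26, limma adjusted p = 0.361) is the mean of -1.32 and -0.15, and with the trends removed these were -0.86 and -0.20. BAX has a short gene model of high GC content (58.9%), and the part of the library's GC trend in its value beyond that correction was not tested.

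**Figure D5:**
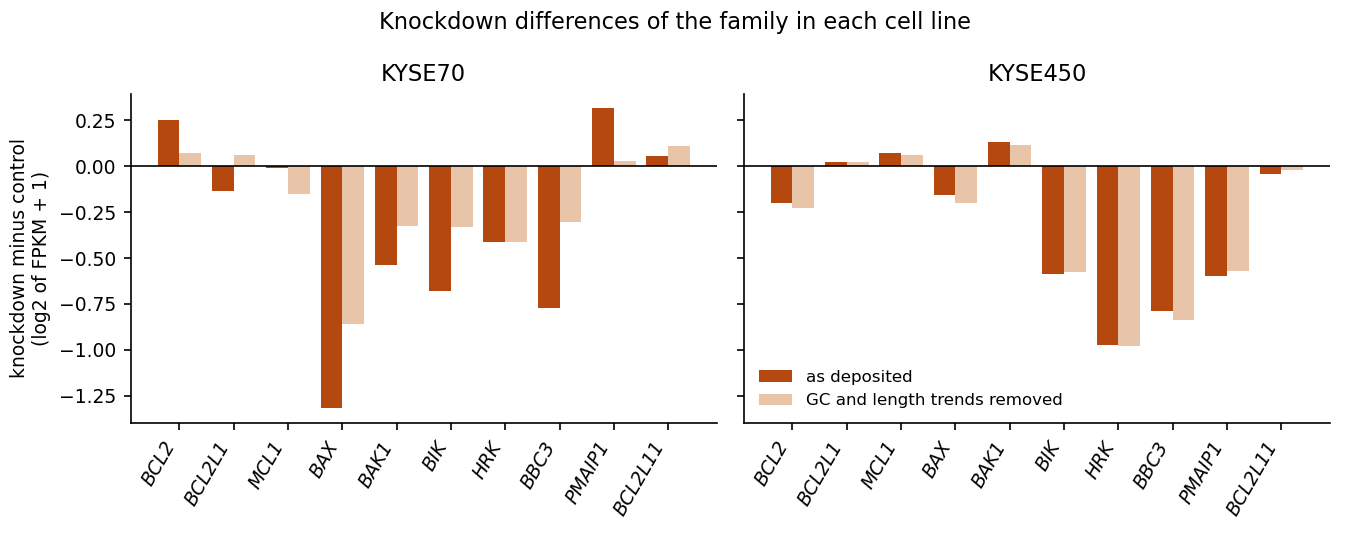
Knockdown minus lentiviral control as a difference of log2(FPKM + 1) for each gene in KYSE70 and KYSE450, as deposited (dark bars) and after correction for GC and length trends (light bars). The KYSE70 bars shorten for BAX, BAK1, BIK and BBC3, and the KYSE70 bar of HRK stays at -0.41.

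Of the other members, 3 had ratios on opposite sides of 1 in the lines, with counting intervals that left out 1 in both. PMAIP1 had a knockdown ratio of 1.26 (1.12 to 1.42) in KYSE70 and 0.642 (0.574 to 0.717) in KYSE450, and BCL2 1.27 (1.04 to 1.55) and 0.858 (0.778 to 0.946). BAK1 had 0.673 (0.611 to 0.742) and 1.10 (1.01 to 1.20). After the GC and length correction the KYSE70 log2 differences were 0.03 for PMAIP1 (from 0.32), 0.07 for BCL2 (from 0.25) and -0.33 for BAK1 (from -0.54). The remaining 3 genes had smaller differences from their controls as deposited. The ratios were 0.911 and 1.02 for BCL2L1, 0.992 and 1.05 for MCL1 and 1.04 and 0.969 for BCL2L11. Among these, the counting interval left out 1 for BCL2L1 in KYSE70 (0.865 to 0.960) and for MCL1 in KYSE450 (1.02 to 1.08). For the 3 genes in that order, the 95% intervals for the log2 difference ran from -0.38 to 0.27, from -0.30 to 0.36 and from -0.35 to 0.36. With the GC and length trends removed, the KYSE70 log2 differences were 0.06 for BCL2L1 (from -0.13) and -0.15 for MCL1 (from -0.01). That of BCL2L11 was 0.11 (from 0.06).

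The overexpression comparison asked the reverse, each library against the plasmid control of its line. Limma called 0 genes (0%), with 1.03% at an unadjusted p under 0.05 and 0 of the 10 among them; voom called none and the plasmid arm fitted alone 12 genes. HRK, BBC3 and PMAIP1 were higher in both lines (3 of 10, beside 23% of all genes), and BCL2, BAX, BAK1 and BIK lower in both (4 of 10, beside 27.6%). The members' median was 0.03 log2 units, against -0.01 over all genes.

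PMAIP1 had the largest mean difference of the 10, 0.31 log2 units (SE 0.25, n = 2 pairs, 95% interval -0.27 to 0.90, limma adjusted p = 0.9998). Its KYSE450 library went from 3.78 to 6.003 FPKM, a ratio of 1.59 (1.28 to 1.98), and its KYSE70 library from 9.47 to 10.0 FPKM, a ratio of 1.06 (0.920 to 1.22). The counting interval of KYSE450 lies above 1 and that of KYSE70 includes 1. In KYSE450 the ratio was 1.24 (1.10 to 1.39) for BCL2L11, 1.10 (1.07 to 1.14) for MCL1, 0.805 (0.684 to 0.946) for BCL2 and 0.838 (0.763 to 0.920) for BAK1. In KYSE70 these genes had 0.981 (0.890 to 1.08), 0.983 (0.945 to 1.02), 0.839 (0.701 to 1.004) and 0.937 (0.863 to 1.02). BCL2 and BIK each stood at -0.22 (SE 0.18 and 0.16), the lowest of the 10. The other 7 lay between -0.17 (BAK1) and 0.19 (HRK).

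Taken over the 8 libraries, after the mean of each line was subtracted, BBC3 and HRK ran together with a Pearson correlation of 0.977, HRK and PMAIP1 with 0.937 and BBC3 and PMAIP1 with 0.911. BAX and BAK1 had 0.865 and MCL1 and BCL2 0.861, while BCL2 and BCL2L1 had -0.712. Pairs across the classes were as high: MCL1 had 0.904 with PMAIP1, 0.856 with BBC3 and 0.852 with HRK. BCL2 had 0.811, 0.747 and 0.801 with PMAIP1, BBC3 and HRK, and BAX had 0.8 with BIK. These describe 8 points that share arms and lines, and the BAX and BAK1 value includes the KYSE70 knockdown library. Among 12001 protein-coding genes, those closest to BBC3 were RLTPR (0.996), GLUL (0.992) and SYCE3 (0.990). Those closest to HRK were HBEGF (0.994), SERINC5 (0.990) and RHBDD1 (0.989), and to PMAIP1 FYN (0.990), F3 (0.990) and NFIA (0.988).

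For the other members the closest patterns were RSL1D1, PWP1 and PMM2 to BCL2 (0.991 to 0.992), RRAGB, ING4 and ALAD to BCL2L1 (0.989 to 0.992), ZNF283, TRIM47 and IFIH1 to MCL1 (0.991 to 0.998), and TRIM41, CLPP and FAM96B to BAX (0.995 to 0.996). BAK1 ran with SPHK2, C19orf81 and GANAB (0.967 to 0.981) and BIK with C19orf48, RNASEH1 and MRPL2 (0.982 to 0.988). BCL2L11 ran with MT-CO3 (0.967) and SHOX2 (0.938).

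The wider pathway was followed in lists of other genes, each compared with the all-gene shares above. Between the lines, 9 of 12 tested death receptor genes were higher in KYSE450 and 0 lower. CFLAR, the caspase 8 inhibitor, was at 0.0261 to 0.178 FPKM in KYSE70 and 8.44 to 11.8 FPKM in KYSE450, and the decoy receptor TNFRSF10D was at no more than 0.0269 FPKM in KYSE70 and 5.26 to 9.13 FPKM in KYSE450. All 4 genes that ubiquitinate or deubiquitinate MCL1 were lower in KYSE450, led by FBXW7 (log2 difference -1.86, SE 0.16, limma adjusted p = 0.00013) and USP9X (-0.80, SE 0.16, limma adjusted p = 0.0049).

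Further between the lines, 2 of 8 other BCL2 family genes were lower in KYSE450 and 0 higher, BID (-0.87) and BCL2L13 (-0.56). Of 11 apoptosome and caspase genes 2 were higher and 2 lower, with AIFM1 at -0.78. Of 6 inhibitors of apoptosis 4 were higher and 1 lower (XIAP -0.94; BIRC6 0.88), and of 12 transcriptional regulators 3 were higher and 3 lower (ATF3 -1.72).

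Between the arms, 4.02% of all genes were called, and the calls in each list are set beside that share. BNIP3, a hypoxia-responsive relative of the BH3-only genes, was higher in the lentiviral arm (1.40, SE 0.14, limma adjusted p = 0.0187), the only called gene of 8 in its list, beside BNIP3L at 1.17 (0.0520). Of 11 apoptosome and caspase genes 2 were lower and 0 higher, with CASP6 at -0.78. BIRC3, an NF-kB target that inhibits death receptor signaling, stood at 0.546 to 1.79 FPKM in the plasmid arm and 2.54 to 31.7 FPKM in the lentiviral arm (2.36, SE 0.36, limma adjusted p = 0.0321), the 1 called of 6, with BIRC6 at 0.42 (0.111).

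In the death receptor list TNFRSF10B, which codes for the TRAIL receptor DR5, was higher (1.33, SE 0.19, limma adjusted p = 0.0301) and RIPK1 lower (-0.70, adjusted p = 0.0496), 2 called of 12. Among 12 transcriptional regulators ATF3, a stress-induced factor, was the 1 called (1.56, SE 0.25, limma adjusted p = 0.0345), with TP63 at 0.87 (0.0608). Of the 4 MCL1 ligase and deubiquitinase genes 0 were called between the arms (USP9X 0.54 and HUWE1 -0.25).

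DDIT3, which codes for the stress factor CHOP and was picked after its values were seen, had 12.99 and 11.6 FPKM in the plasmid arm of KYSE70 and 9.15 and 13.7 FPKM in that of KYSE450. In the lentiviral arm it had 26.2 (control) and 53.4 FPKM (knockdown) in KYSE70 and 64.1 and 20.1 FPKM in KYSE450. Its knockdown library was above its control in KYSE70 and below it in KYSE450, and the log2 difference in KYSE70 was 1.19 after the GC and length correction.

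For the difference of arms between lines, BMF (-1.97) and BNIP3L (-1.14) were the 2 called of 8 other family genes, and CYCS (1.32) and APAF1 (-1.04) the 2 called of 11 apoptosome and caspase genes. BIRC3 (1.76) and BIRC2 (-1.30) were the 2 called of 6, and TNFRSF10A (1.20) the 1 called of 12, with TNFSF10 at -1.01. MYC (1.88) and TP73 (-2.23) were the 2 called of 12 regulators, and 0 of the 4 MCL1 regulators were called (FBXW7 -0.56; BTRC -0.52). Between the control groups 0 genes of any list were called, and the values of lowest p were BNIP3 1.41 and BNIP3L 1.16, CASP6 -0.91, BIRC3 2.73 and BIRC5 -0.41, TNFRSF10B 1.498 and RIPK1 -0.63, ATF3 2.01 and MDM2 -0.77, and BTRC -0.48 and USP9X 0.45.

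Under knockdown 0 genes of any list were called. TNFSF10, which codes for TRAIL, stood at 1.13 (SE 0.19, limma adjusted p = 0.239) and FADD at -0.52. The ubiquitin ligase gene MDM2 stood at 0.83 (SE 0.15, limma adjusted p = 0.251) and ATF4 at -0.63. BIRC3 was at -0.68 and BIRC2 at 0.63, ENDOG at -0.81 and CASP6 at 0.34, BCL2L2 at -0.25 and BNIP3 at -0.22, BTRC at 0.57 and USP9X at 0.19. These means are not corrected for GC and length. The ENDOG mean rests on -1.55 in KYSE70 (-1.04 after the correction) and -0.07 in KYSE450, and that of FADD on -0.95 (-0.74) and -0.09. Overexpression also called 0, with TNFSF10 at 0.62 and FAS at -0.34, FBXW7 at 0.38 and BTRC at -0.03, TP63 at 0.41 and ATF4 at 0.20, DIABLO at 0.36 and AIFM1 at -0.10, XIAP at 0.15 and BIRC5 at -0.09, and BNIP3 at -0.18 and BID at -0.15.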

How the data were processed

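The members, gene lists and naming rule were chosen with earlier results of these data known. Total RNA was extracted with Trizol, per the labels' protocols. TopHat2 2.0.9 and HTSeq 0.6.1 are listed with hg19 in the submitters' processing notes, which give no roles; annotation, filters and strand setting: not given in the sources used here. The unit was inferred, as neither headers nor labels state it: the deposited values behave as FPKM, since in 100% of the 30872 genes above 0 in at least 2 libraries they were whole multiples of 1 step (tolerance 0.02) once each library had its factor. The recovered units are called reads, though they may be fragments.

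Gene coordinates and GC content are from GENCODE release 29 on GRCh38, in which 45342 identifiers matched, and gene names from the files. The 14311 genes whose mean reached 1 FPKM were fitted as log2(FPKM + 1) with limma 3.58.1 (trend) in R 4.3.3, with Benjamini-Hochberg adjustment over all of them (threshold 0.05). A fold change on this scale understates the change of low genes. Treatment was fitted with pair terms (4 pairs of libraries), which left 2 residual degrees of freedom; line and arm used line and group terms, with 3. Same-numbered libraries share a line, which is where the pairing comes from: correlations were 0.949 to 0.996 within a line and 0.797 to 0.847 between lines. The models were run on simulated data with known changes, with independent noise of the same spread for all genes. That does not speak to trends of single libraries, such as the GC trend of the KYSE70 knockdown library. Ratios between 2 libraries have exact binomial intervals (95%) from the recovered reads.

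All 10 genes are covered in every comparison, by name or in the range given for the rest, with the 2 genes of lowest p from each list per comparison, and the 3 protein-coding genes closest in pattern to each member; 1 of these is listed under a date in place of its symbol and is not named. A few list genes that this rule takes are not reported here. Alternatives were another pseudocount, filter and scaling, voom on recovered reads, fits of an arm or the controls alone, no replicate block, correction for GC and length trends (loess, span 0.3; the per-library form was added after seeing the data), and leaving out each library.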

Additional observations from a re-analysis of the deposited data

Results flagged for a closer look

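BAX in KYSE70 had 1 library far from the others: the knockdown library had 59.7 FPKM and the nearest of the other 3 had 147 FPKM. That gap is 0.954 of the range of the 4 libraries, above the Dixon limit of 0.829, which chance passes in about 1 in 20 groups. The groups searched were 20, each of the 10 genes in 2 lines.

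For 3 genes the knockdown ratio lay on opposite sides of 1 in the lines, with counting intervals that left out 1 in both; each line has 1 pair of libraries and the difference was not tested. The ratio of BCL2 was 1.27 in KYSE70 and 0.858 in KYSE450, that of BAK1 was 0.673 and 1.10, and that of PMAIP1 was 1.26 and 0.642. After correction for GC and length trends, the log2 differences in KYSE70 were 0.07 for BCL2, -0.33 for BAK1 and 0.03 for PMAIP1.

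The BIK difference between arms was 1.03 log2 units larger in KYSE450 than in KYSE70, by the interaction term in limma (adjusted p = 0.0490, n = 4 libraries per line). This call was lost at a pseudocount of 0.1 (limma adjusted p = 0.0579), at a mean of at least 5 FPKM (0.0585), with voom (0.0666) and without the filter (0.183). It was also lost without any 1 plasmid library. TMM scaling, quantile normalization and the per-library correction for GC and length trends kept it.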

How the results depend on the processing

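Depth limits the lowest values (41 reads for BIK in 1 library), and 1 library per line and group limits the rest. Of 60 gene results, 38 kept their sign in every setting run. Limma's counts of called genes were 0 for overexpression, 0 for knockdown, 7726 between lines, 0 between controls, 575 between arms and 912 for the difference of arms between lines. Without the replicate block, which pairs libraries of a line, the treatment counts were 0 and 0, with 3 and 44 genes at an unadjusted p under 0.05. Fitted alone, the plasmid arm gave 12, the lentiviral arm 37 and the controls 73. Knockdown gave 3 at pseudocount 0.1 and 4 with voom. Without the filter the arm and arm-by-line counts were 0 and 0; with per-library trends removed, 927 and 1752. The arm-by-line count was 511 at a mean of at least 5 FPKM and 541 with quantile normalization. The share of arm calls that were higher was 74.8%, but 54.4% with TMM scaling and 54% with quantile normalization; for arm by line it was 24.1%, 41.6% and 40.3%. Leaving out each library, counts ran from 0 to 12 (overexpression), 36 to 4833 (knockdown), 6077 to 7651 (lines), 0 to 11 (controls), 0 to 2463 (arms) and 330 to 6101 (arm by line); the high knockdown counts, 4832 and 4833, were without the KYSE450 lentiviral control or knockdown library, which leaves the KYSE70 pair.

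The sign turned as follows; no such value was called. For overexpression, BCL2L1 was 0.0077 with TMM scaling and 0.0076 with quantile normalization. For knockdown, BCL2 was -0.0321 with voom, -0.0793 with pair trends removed and -0.0923 with per-library trends removed; BCL2L1 was 0.0438 and 0.0308 and MCL1 -0.0436 and -0.0566 with those trends removed, and BCL2L11 was -0.0069 with TMM scaling. With TMM scaling, BCL2L11 was 0.0406 for arm by line and -0.00094 between arms, and BCL2L1 was -0.0455 between controls and -0.0828 between arms. BBC3 was -0.0927 between lines with quantile normalization. BIK between arms was -0.0102 with TMM scaling, -0.0213 with quantile normalization and -0.0269 with voom. The cause was not tested. On leaving out each library 21 results changed sign. Under overexpression the ranges were BCL2L1 -0.0451 to 0.043, MCL1 -0.0237 to 0.14, BCL2L11 -0.026 to 0.29. Under knockdown they were BCL2 -0.20 to 0.25, BCL2L1 -0.13 to 0.0261, MCL1 -0.0107 to 0.0703, BAK1 -0.54 to 0.13, PMAIP1 -0.60 to 0.32, BCL2L11 -0.0432 to 0.057. For the difference of arms between lines they were BAK1 -0.12 to 0.55, BCL2L11 -0.27 to 0.0522. Between lines the range was BBC3 -0.0814 to 0.23. Between controls the ranges were BCL2 -0.16 to 0.88, BCL2L1 -0.22 to 0.30, BAX -0.14 to 0.47, BAK1 -0.23 to 0.0749, BIK -0.0305 to 0.59. Between arms they were BCL2L1 -0.12 to 0.15, BAX -0.53 to 0.15, BAK1 -0.24 to 0.0526, BIK -0.12 to 0.27.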
